A study of Homo sapiens with 4 samples.

Results

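miR-210 is made from 1 hairpin, MIR210, and both of its mature arms, hsa-miR-210-3p and hsa-miR-210-5p, are followed here through the exosomes of a pair of human colon cancer lines. Exosomes are vesicles, shed by cells, that carry small RNA. The members were chosen by name, and they are 2 of the 2588 mature miRNAs listed in every library. The 4 groups hold 1 library each. HCT29 sphere and HCT15 sphere exosomes came from spheres grown for 3 weeks in a stem cell medium (DMEM/F12 with N2, bFGF at 10 ng/ml and EGF at 10 ng/ml). HCT29 parental and HCT15 parental exosomes came from cells kept in complete RPMI, collected in a form of that medium depleted of exosomes. The labels give the same atmosphere for all 4 cultures, 95% air with 5% CO2 at 37.0 °C, and no low-oxygen group. The growth text of both HCT29 samples names HCT15, so the labels leave the identity of that line unsettled. The labels do not say how many cultures were pooled for a library. Only exosomal RNA was sequenced, so the level inside the cells was not measured.

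miR-210 is a miRNA widely used as a mark of low oxygen. The transcription factor HIF-1 binds and activates its gene when oxygen is short, and miR-210-3p then represses, among others, the iron-sulphur cluster assembly protein ISCU, which lowers mitochondrial respiration, and the receptor ligand EFNA3. Low oxygen can arise inside dense cell clusters, so whether sphere exosomes carry more miR-210 is a question the culture comparison addresses. Sphere and parental cultures also differ in medium and growth factors. An effect of oxygen could not be told apart from these and was not tested.

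Both arms are shown because the results turn on their separate levels. Each is written 5′ to 3′ with its seed, bases 2 to 8, which pairs with targets, in capitals.
miR-210-3p: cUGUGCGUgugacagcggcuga
miR-210-5p: aGCCCCUGcccaccgcacacug
The hairpin that holds both is given with the 2 arms in capitals, the 5p arm first.
MIR210 hairpin: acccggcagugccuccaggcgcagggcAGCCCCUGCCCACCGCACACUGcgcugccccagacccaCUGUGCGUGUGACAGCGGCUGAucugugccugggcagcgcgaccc
The sequences are RefSeq's for GRCh38.p14, in which the hairpin of 110 bases lies on the minus strand at chr11:568089-568198, with miR-210-3p at chr11:568112-568133 and miR-210-5p at chr11:568150-568171. In GENCODE release 29 the hairpin lies within all 4 transcripts of the long noncoding host gene MIR210HG and overlaps 0 of its exons, so it is intronic there. Neither seed is shared with another human mature miRNA in RefSeq's table. The arms are 22 bases each with 16 bases between them, and in the predicted minimum free energy fold 16 pairs join one arm to the other. GC content is 63.6% for miR-210-3p and 72.7% for miR-210-5p, against a median of 52.2% over the 2281 listed miRNAs with a sequence.

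hsa-miR-210-3p was at a similar level in 3 of the 4 libraries and lower in HCT29 sphere exosomes. Levels are in RPM, which sets each library to one fixed total, and the reads given are whole reads recovered from those values. Brackets hold exact 95% intervals, which cover counting error only. HCT15 sphere exosomes had 666 RPM (593 to 744, 307 reads) and HCT15 parental exosomes 621 RPM (500 to 762, 91 reads). HCT29 sphere exosomes had 136 RPM (106 to 171, 72 reads) and HCT29 parental exosomes 515 RPM (390 to 667, 57 reads). In the order of levels, HCT15 sphere over HCT15 parental (1.07, 0.846 to 1.37) and HCT15 parental over HCT29 parental (1.20, 0.856 to 1.71) did not differ beyond counting error. The step to HCT29 sphere exosomes did, with HCT29 parental 3.80 times as high (2.64 to 5.45).

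miR-210-3p was among the more abundant of the miRNAs with a read in each library. It ranked 101 of the 423 miRNAs with a read in HCT29 sphere exosomes and 75 of 392 in HCT29 parental exosomes, and 72 of 712 in HCT15 sphere and 74 of 476 in HCT15 parental exosomes. Its share of the listed miRNA reads was 0.0156% in HCT29 sphere and 0.0590% in HCT29 parental exosomes, 0.0741% in HCT15 sphere and 0.0797% in HCT15 parental exosomes. Next to it in rank stood miR-3605-3p (138 RPM) and miR-146a-5p (132 RPM) in HCT29 spheres and miR-769-5p (560 RPM) and miR-421 (461 RPM) in HCT29 parental exosomes. In HCT15 its neighbours were miR-151b (731 RPM) and miR-130b-3p (663 RPM) in spheres and miR-345-5p (682 RPM) and miR-1307-3p (614 RPM) in parental exosomes.

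hsa-miR-210-5p, the arm usually discarded when the duplex is loaded into Argonaute, was scarce outside 1 library. It had 1 read in HCT15 sphere exosomes (2.17 RPM, 0.0549 to 12.1) and 18 reads in HCT15 parental exosomes (123 RPM, 72.7 to 194). It had 7 reads in HCT29 sphere exosomes (13.2 RPM, 5.30 to 27.2) and 1 read in HCT29 parental exosomes (9.04 RPM, 0.229 to 50.3). HCT15 parental stood above the next library, HCT29 sphere, by 9.31-fold (3.71 to 26.4), and the other 3 did not differ from their neighbours in order beyond counting error.

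**Figure D1:**
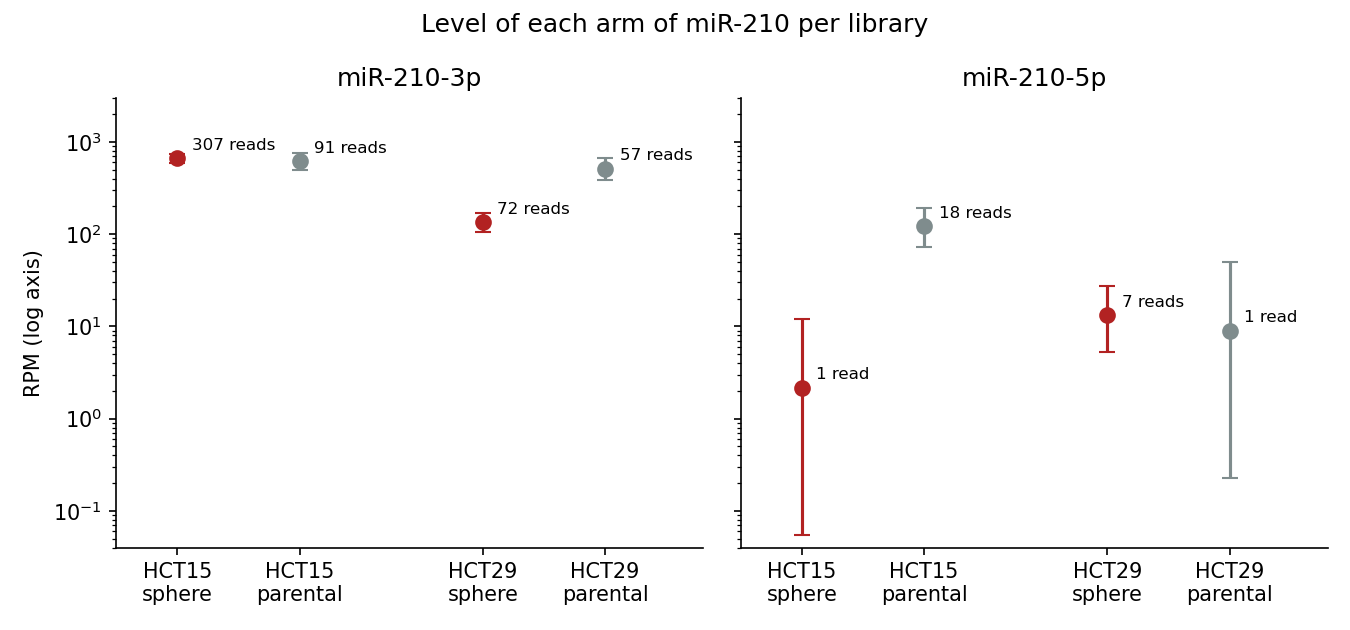
RPM of miR-210-3p (left) and miR-210-5p (right) on a log axis in each library, with exact 95% counting intervals and the reads behind each point; sphere libraries are red and parental ones grey. miR-210-3p is lowest in HCT29 sphere at 136 RPM and between 515 and 666 RPM elsewhere, while miR-210-5p is highest in HCT15 parental at 123 RPM.

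Within HCT15, sphere exosomes held about as much miR-210-3p as parental exosomes by RPM. The ratio of sphere to parental was 1.07 (0.846 to 1.37), a log2 ratio of RPM + 1 of 0.10. A miRNA entered this comparison with 10 or more reads in one of the libraries, and of the 305 that did, 32.1% were at least 2-fold higher and 28.2% at least 2-fold lower in spheres. miR-210-3p was in neither set, and its log2 ratio lay 0.22 above the median of all 305, which was -0.12. Its sign depended on the scaling, from -0.21 relative to 4 miRNAs often used as references to 0.71 with TMM scaling, which equalises the bulk of the miRNAs between libraries. The references include miR-103a-3p, itself 5.29-fold higher in HCT15 spheres by RPM. The TMM value lies above the counting interval of the RPM ratio, -0.241 to 0.455 in log2, as does the value of 0.56 with DESeq2 size factors. With 1 library per group there is no replicate error, and no p-value is given for a ratio within a line.

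Within HCT29, sphere exosomes held less miR-210-3p than parental exosomes. The ratio was 0.263 (0.183 to 0.379), which is 3.80-fold lower, with a log2 ratio of -1.92. Of 224 miRNAs tested in this line, 36.2% were at least 2-fold lower in spheres and 23.2% at least 2-fold higher, so a decrease of this kind was common. 44 of the 224 had a lower log2 ratio than miR-210-3p, which lay 1.35 below the median of -0.57. TMM scaling moved that median by 0.74 and left miR-210-3p at -1.17, and DESeq2 size factors left it at -1.05. With TMM factors taken from all miRNAs with a read, an alternative chosen after seeing the data, the median moved by 1.15 and miR-210-3p was at -0.75, within 2-fold. Its distance below the median stayed between 1.33 and 1.35 under these scalings, which shift all miRNAs of a library alike.

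**Figure D2:**
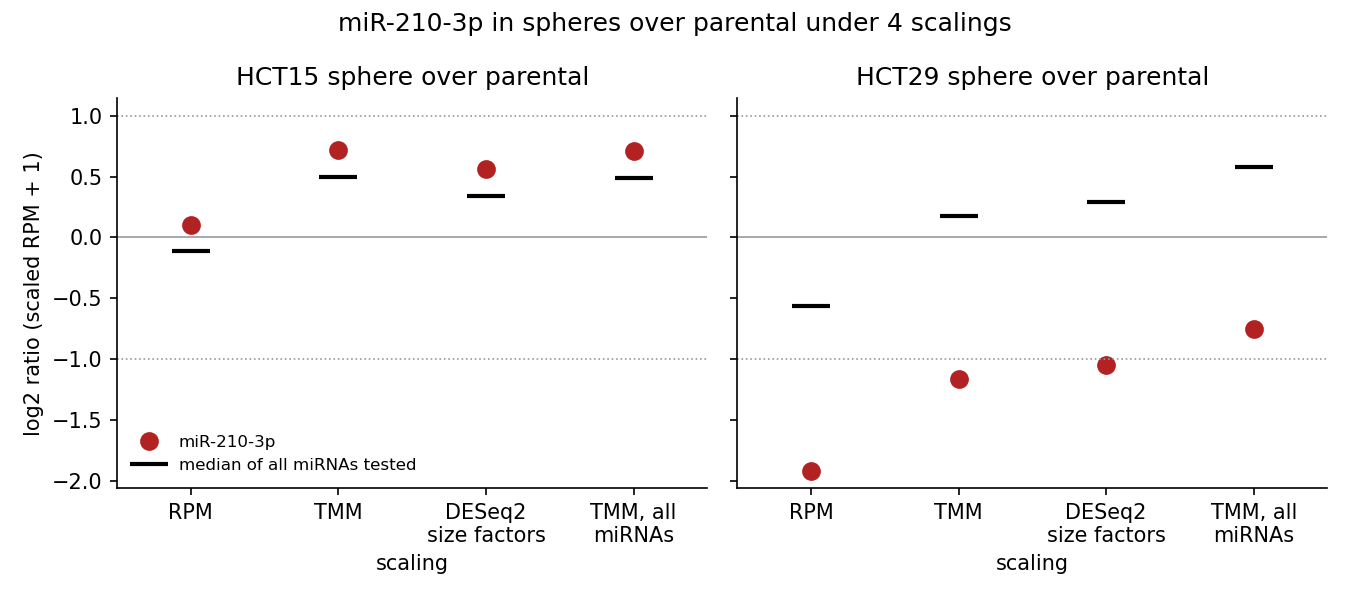
Log2 ratio of sphere over parental exosomes for miR-210-3p (red points) and the median of all miRNAs tested (black bars) in HCT15 (left) and HCT29 (right) under 4 scalings named on the x axis; dotted lines mark 2-fold. In HCT29 miR-210-3p lies below the median under each, from -1.92 for RPM to -0.75, and in HCT15 it lies between 0.10 and 0.71, just above the median.

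The lines differed in how miR-210-3p changed with culture. The sphere over parental ratio in HCT29 was 0.245 times that in HCT15 (0.158 to 0.382, exact conditional interval on reads). No replicate test of this difference is possible, because an interaction leaves no residual degrees of freedom. Across both lines, a limma model of log2(RPM + 1), with line and culture as terms, gave a culture effect of -0.91 (SE 1.29) for miR-210-3p, with a Benjamini-Hochberg adjusted p of 0.968 over 222 miRNAs. miR-210-3p was lower in spheres in 1 of 2 lines. The culture effect was -0.23 with TMM-scaled values, -0.24 with DESeq2-scaled values and -0.02 with TMM factors from all miRNAs. The RPM fit called 0% of the miRNAs in either direction, with 12 at an unadjusted p under 0.05. The test has 1 residual degree of freedom, so its spread is in effect pooled over miRNAs. It can say little about the absence of a change.

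Between the lines, miR-210-3p was similar in parental exosomes and lower in HCT29 among sphere exosomes. The ratio of HCT29 to HCT15 was 0.830 (0.585 to 1.17) in parental exosomes, a log2 ratio of -0.27 that turned to 0.04 under TMM scaling. By RPM, 22.8% of the 224 miRNAs compared there were at least 2-fold higher in HCT29 and 46.4% at least 2-fold lower. In sphere exosomes the ratio was 0.204 (0.155 to 0.264), which is 4.91-fold lower (3.79 to 6.44), but 56% of the 325 miRNAs tested there were at least 2-fold lower in HCT29, 25.2% were at least 2-fold higher, and 133 had a lower log2 ratio than miR-210-3p. Relative to the 4 reference miRNAs the log2 ratio between spheres was -0.92, within 2-fold, against -2.29 by RPM. These references differed between the spheres themselves, with miR-191-5p 4.97-fold higher in HCT29 and the other 3 at least 2-fold lower. The limma line effect was -1.28 (SE 1.29), lower in HCT29 in 2 of 2 cultures by RPM, with an adjusted p of 0.588, while 9.01% of miRNAs passed as lower in HCT29 and 3.6% as higher. The spread behind these calls is likewise pooled over miRNAs, with 1 library per group. For miR-210-3p the line effect was -0.90 with TMM-scaled values, -0.68 with DESeq2-scaled values and -0.75 with TMM factors from all miRNAs.

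miR-210-5p passed the filter of 10 reads in HCT15 through its parental library alone, and in HCT29 it did not pass. In HCT15 its ratio of sphere to parental was 0.0177 (0.000424 to 0.112), which is 56.6-fold lower (8.94 to 2.36e+03) on 1 sphere read. Its log2 ratio of -5.29 was undercut by 5 of the 305 miRNAs tested. In HCT29 the ratio was 1.46 (0.187 to 65.8), which leaves the direction undetermined at this depth. Between the lines it was 13.6-fold lower (2.14 to 566) in HCT29 than in HCT15 parental exosomes, on 1 HCT29 read, and in spheres the ratio of 6.08 (0.781 to 274) again left the direction undetermined. The test over all 4 libraries was not run for this arm, which had at least 10 reads in 1 library only.

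The balance of the arms differed between libraries. The 5p arm made up 0.325% of the miR-210 reads in HCT15 sphere exosomes (0.00822 to 1.80, Clopper-Pearson) and 16.5% in HCT15 parental exosomes (10.1 to 24.8). It made up 8.86% in HCT29 sphere exosomes (3.64 to 17.4) and 1.72% in HCT29 parental exosomes (0.0436 to 9.24). The shares thus lay on opposite sides, with the HCT15 sphere below its parental library and the HCT29 sphere above its own, although the HCT29 intervals overlap. The odds of 5p to 3p in HCT15 spheres were 0.0165 times the parental odds (0.000394 to 0.108), and those in HCT29 spheres 5.54 times the parental odds (0.674 to 254). These shares do not depend on the scaling, since both arms are read from the same library.

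Other hairpins were used as a yardstick, taking for each the arm with fewer reads over all 4 libraries as the minor arm. Among hairpins with at least 50 reads over both arms, the median minor-arm share was 1.31% in HCT15 sphere and 1.67% in HCT15 parental exosomes, and 0.115% in HCT29 sphere and 0.546% in HCT29 parental exosomes. miR-210 stood at a higher share than most in HCT15 parental, where 12 of 79 hairpins exceeded it, and HCT29 sphere, where 13 of 89 did. In HCT29 parental 17 of 57 exceeded it and in HCT15 sphere 70 of 108. In each of these last libraries its place rests on 1 read of the 5p arm, and its interval spans the median. Between sphere and parental HCT15, 30% of the 70 hairpins with enough reads in both had minor-arm odds whose interval lay below 1 and 14.3% above 1. A fall in the minor arm was therefore common, and that of miR-210, at a log2 odds ratio of -5.37 with 0.5 reads added to each count, was undercut by 1 hairpin, beside a median of -0.73. In HCT29, 25% of 44 hairpins had intervals below 1 and 11.4% above 1, and miR-210 was in neither set. Between the lines, the miR-210 odds of 5p to 3p in HCT29 spheres were 29.8 times those in HCT15 spheres (3.70 to 1.35e+03), on 7 and 1 reads of the 5p arm. With 0.5 reads added to each count the log2 odds ratio was 4.41, the highest of 68 hairpins. Of these, 30.9% had intervals below 1 and 10.3% above 1. In parental exosomes the odds in HCT29 were 0.0887 times those in HCT15 (0.00209 to 0.598), with 39.5% of 43 hairpins below 1 and 11.6% above 1.

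**Figure D3:**
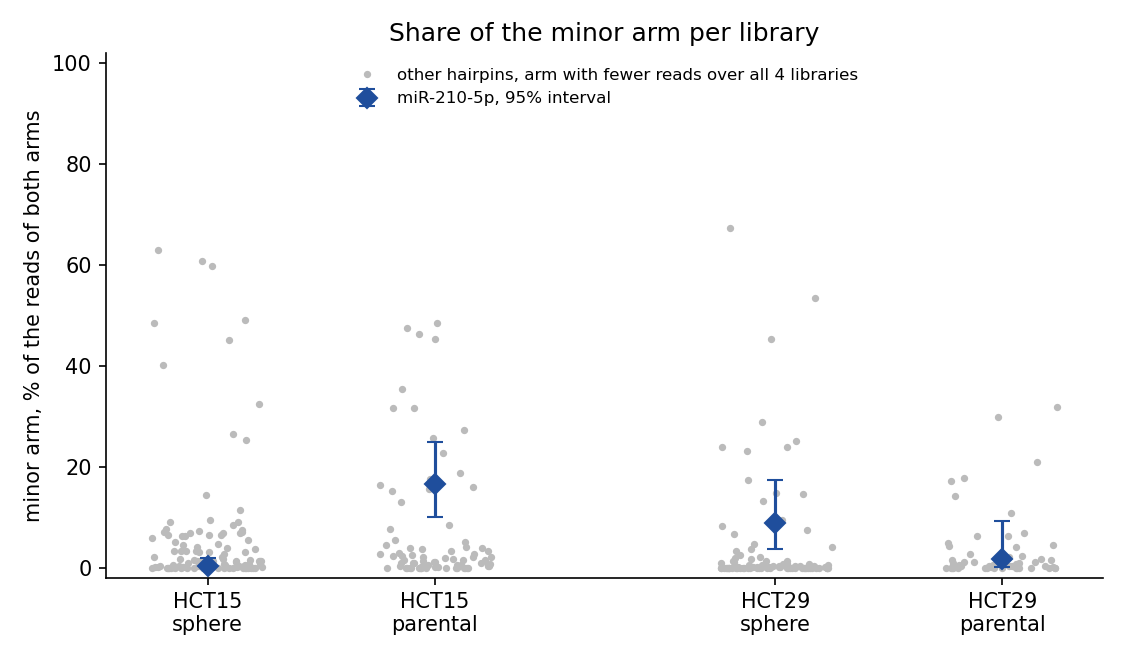
Share of the minor arm in the reads of both arms, for hairpins with at least 50 reads, in each library; grey points are other hairpins, spread sideways at random, and the blue diamond with its 95% Clopper-Pearson interval is miR-210-5p. miR-210-5p is at 0.325% in HCT15 sphere, 16.5% in HCT15 parental, 8.86% in HCT29 sphere and 1.72% in HCT29 parental.

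miR-210-3p supplied most of the reads of both arms in every library. The arms together summed to 668 RPM in HCT15 sphere and 743 RPM in HCT15 parental exosomes, a ratio of 0.898 (0.720 to 1.13), and to 149 RPM in HCT29 sphere and 524 RPM in HCT29 parental exosomes, a ratio of 0.284 (0.200 to 0.406). Unlike miR-210-3p alone, the sum was below 1 in HCT15, although its interval includes 1. For HCT29 over HCT15 the ratio of the sum was 0.705 (0.504 to 0.978) in parental exosomes, where that of miR-210-3p alone was 0.830 (0.585 to 1.17), and 0.223 (0.172 to 0.286) in sphere exosomes.

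The next list holds 21 miRNAs that cell culture studies have found raised by hypoxia, with miR-210 left out. At 2-fold by RPM, more members were higher than lower in HCT15 spheres and more lower than higher in HCT29 spheres. The same held among all miRNAs of each line, and the difference between the lines was not tested. Of the 19 with at least 10 reads in HCT15, 8 were at least 2-fold higher in spheres, beside 32.1% of all miRNAs, and 2 at least 2-fold lower, beside 28.2%. Their median log2 ratio was 0.46, against -0.12 for all 305. The 8 higher members are not independent, since some share a cluster or a seed, as given below. Of the 17 measured in HCT29, 0 were higher and 11 lower, beside 23.2% and 36.2% of all miRNAs, with a median of -1.18 against -0.57. Under TMM scaling 5 of the 17 were lower and 0 higher, beside 48 lower and 76 higher of all 224. With TMM factors from all miRNAs 2 were lower and 2 higher, beside 36 lower and 94 higher of all 224. The fibroblast and smooth muscle markers lay the same way, with 4 of 4 measured higher in HCT15 spheres (median log2 ratio 4.94) and 2 of 2 measured lower in HCT29 spheres (median -3.51), and their part in the list's counts was not tested. Only 3 of the 5 markers had a read in HCT15 parental exosomes. Of the measured markers, only miR-143-3p and miR-199a-3p reached 10 reads in 2 or more libraries. The others, miR-199a-5p among them, passed the filter on their sphere reads alone, as did miR-424-5p of the hypoxia-raised list. The marker count and median in HCT15 thus rest in part on members admitted through the library where they are high. The list is drawn from several cell types, and many of its members respond to much besides oxygen.

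Among the higher members in HCT15 were miR-107 and miR-103a-3p, a pair with the same seed that lie in introns of pantothenate kinase genes. They are shown, with the seed in capitals, because they differ at a single base, G22C counted from the 5′ end of miR-103a-3p, so that reads can be hard to assign between them.
miR-103a-3p: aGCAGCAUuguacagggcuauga
miR-107: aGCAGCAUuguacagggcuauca
By RefSeq, GRCh38.p14, miR-103a-3p is encoded on the minus strand at chr5:168560904-168560926 and on the plus strand at chr20:3917541-3917563, and miR-107 on the minus strand at chr10:89592756-89592778. miR-107 had 11103 RPM in HCT15 sphere and 532 RPM in HCT15 parental exosomes, 20.9-fold higher (16.7 to 26.5), and miR-103a-3p had 11834 RPM in sphere and 2237 RPM in parental exosomes, 5.29-fold higher (4.73 to 5.93). In HCT29 spheres both were lower, miR-107 by 2.27-fold (1.83 to 2.80) and miR-103a-3p by 2.53-fold (2.25 to 2.83), and TMM scaling brought both within 2-fold, to -0.43 and -0.58.

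Also higher in HCT15 spheres were 3 miRNAs found together in 1 primary transcript: miR-23a-3p by 3.48-fold (2.94 to 4.14), miR-27a-3p by 20.4-fold (16.6 to 25.5) and miR-24-3p by 13.6-fold (9.97 to 19.0). Whether all miR-24-3p reads came from that transcript was not determined. Higher as well were miR-125b-5p (8.33-fold, 5.59 to 13.0) and miR-192-5p, an epithelial marker (4612 RPM in sphere and 1125 RPM in parental exosomes). miR-424-5p, which represses CUL2, a scaffold of the ubiquitin ligase that marks HIF for degradation, had 49 reads in sphere and 0 in parental exosomes, at least 5.19-fold higher against 3 reads in the parental library, and the list's median is the same with it at that bound. Lower in HCT15 were miR-30b-5p (2.92-fold, 1.96 to 4.34) and miR-93-5p (2.41-fold, 2.14 to 2.73), of which TMM scaling left 0 at 2-fold. miR-155-5p and miR-373-3p, both reported to be induced by HIF-1, had ratios of 0.744 (0.601 to 0.925) and 0.611 (0.534 to 0.700) in HCT15, within 2-fold. miR-373-3p had 0 reads in both HCT29 libraries. The lower members in HCT29 included miR-30b-5p (12.6-fold, 9.97 to 16.0), miR-23b-3p (5.35-fold, 4.48 to 6.39), miR-23a-3p (4.41-fold, 3.61 to 5.39) and miR-93-5p (4.24-fold, 3.81 to 4.70).

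The other lists hold repressors of HIF1A and of HIF1AN. HIF1A encodes the oxygen-sensitive subunit of HIF-1, and HIF1AN encodes FIH, the enzyme that inhibits it. Repressing HIF1A would thus restrain HIF-1, and repressing HIF1AN would release it. Of 9 repressors of HIF1A, 6 were measured in each line, miR-199a-5p in HCT15 alone and miR-338-3p in HCT29 alone. In HCT15, 2 of 6 were at least 2-fold higher in spheres, beside 32.1% of all miRNAs, and 2 of 6 lower, beside 28.2%, both near the background. The higher ones were miR-22-3p (2.48-fold, 2.37 to 2.61) and miR-199a-5p (at least 18.7-fold, from 176 sphere reads and 0 parental reads), which is also a fibroblast marker. The 2 lower ones, miR-17-5p (2.52-fold, 2.06 to 3.09) and miR-20a-5p (2.34-fold, 1.82 to 3.02), came within 2-fold under TMM scaling. In HCT29, 0 of 6 were higher, beside 23.2% of all miRNAs, and 4 of 6 lower, beside 36.2%. The lower ones were miR-20a-5p (35.4-fold, 21.6 to 61.6), miR-17-5p (16.3-fold, 11.4 to 23.6), miR-18a-5p (6.60-fold, 2.42 to 18.9) and miR-429 (5.81-fold, 4.84 to 6.98). All 4 were still at least 2-fold lower under TMM scaling with either set of factors. The first 3 of these come from 1 primary transcript, the miR-17 cluster. Of the 3 repressors of HIF1AN, miR-31-5p was the only one with at least 10 reads, at ratios of 0.816 (0.747 to 0.893) in HCT15 and 0.507 (0.448 to 0.574) in HCT29, both within 2-fold on the log2(RPM + 1) scale.

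**Figure D4:**
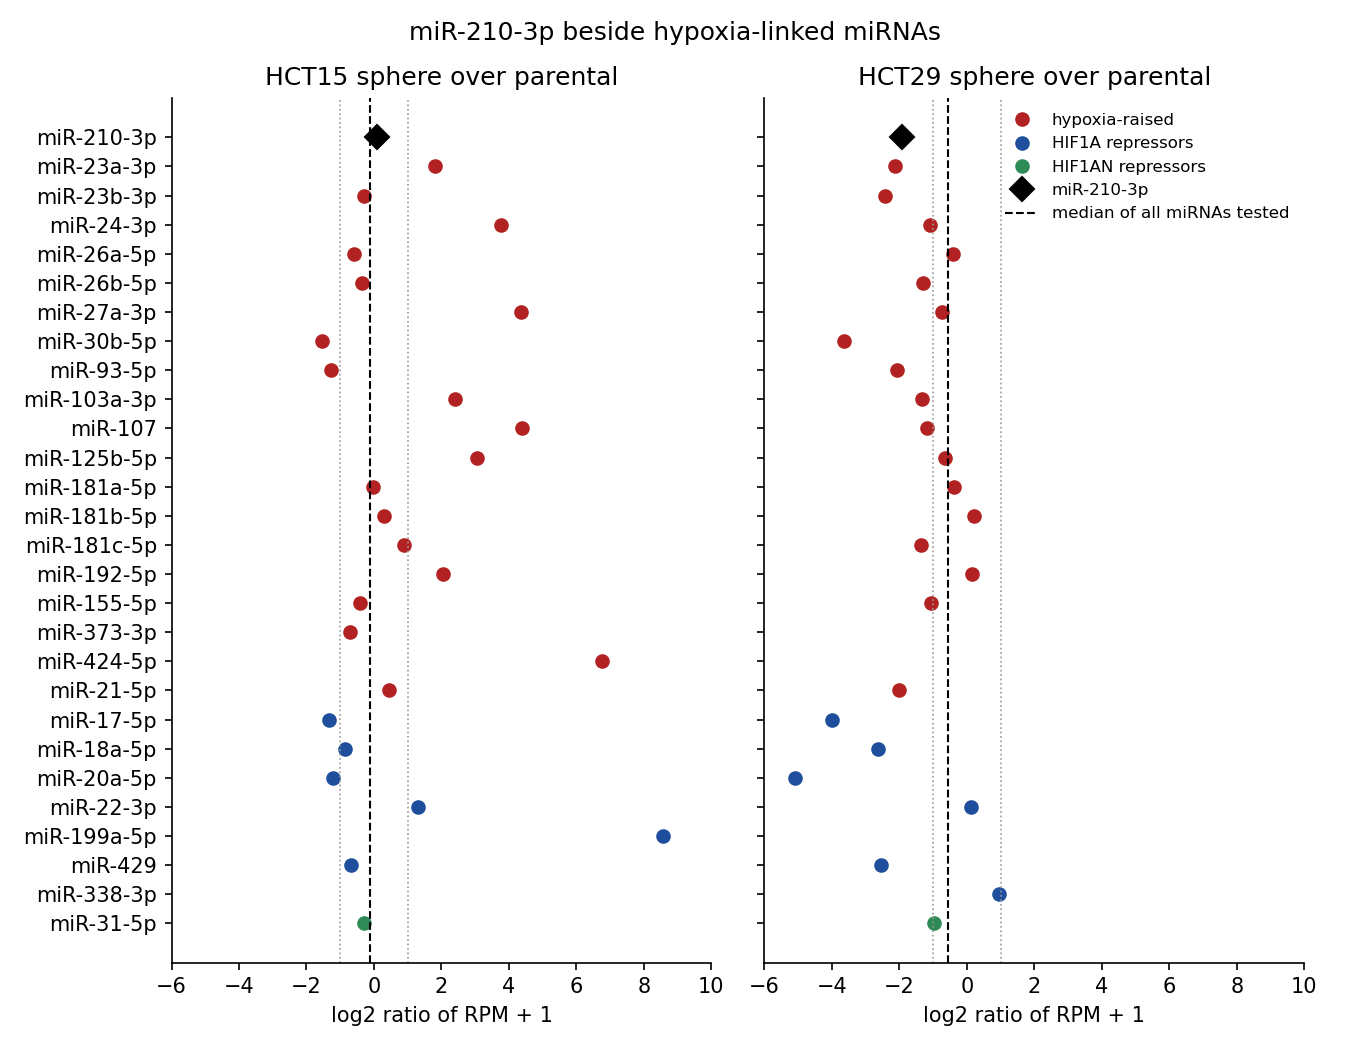
Log2 ratio of RPM + 1, sphere over parental exosomes, for miR-210-3p (diamond) and the members of the 3 hypoxia-linked lists with at least 10 reads in that line, in HCT15 (left) and HCT29 (right); the dashed line is the median of all miRNAs tested and dotted lines mark 2-fold. In HCT15 8 hypoxia-raised members lie to the right of 2-fold and miR-210-3p at 0.10, and in HCT29 11 lie to the left and miR-210-3p at -1.92.

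The pattern of miR-210-3p over the 4 libraries was most like that of miR-16-5p, an abundant and widely expressed miRNA. Likeness was the Euclidean distance of log2(RPM + 1) values centred on each miRNA's mean, over 4 libraries and among the 221 other miRNAs that entered the limma fit, with a median distance of 2.58. miR-16-5p lay at 0.373, with 1211 RPM in HCT29 sphere and 6479 RPM in HCT29 parental exosomes, and 6752 RPM in HCT15 sphere and 7051 RPM in HCT15 parental exosomes. It was followed by miR-15a-5p (0.381), which shares a cluster with a copy of miR-16, miR-301b-3p (0.397), miR-28-5p (0.505), miR-660-5p (0.536) and miR-141-5p (0.613). All 6 were lowest in HCT29 spheres, which their choice by likeness to miR-210-3p largely fixes. The same 6 were nearest with TMM-scaled values, a scaling that shifts every miRNA of a library alike and so can hardly change distances between them.

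Of the other miRNAs often used as references for scaling, miR-191-5p was 1.70-fold higher (1.66 to 1.74) in HCT29 spheres and 2.99-fold lower (2.90 to 3.07) in HCT15 spheres. miR-484 had 30 reads in HCT29 sphere and 4 in HCT29 parental exosomes (1.56-fold, 0.551 to 6.11), and 145 in HCT15 sphere and 33 in HCT15 parental exosomes (1.40-fold, 0.952 to 2.11). Together with miR-16-5p and miR-103a-3p they did not keep a common level.

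Depth and the levels of marker miRNAs moved with the cultures. The totals implied by the RPM steps were 530920 reads for HCT29 sphere and 110666 for HCT29 parental, 461226 for HCT15 sphere and 146648 for HCT15 parental. The 5 markers of intestinal epithelium had reads in all 4 libraries and summed to 81265 RPM in HCT29 sphere and 79455 RPM in HCT29 parental exosomes, and to 15468 RPM in HCT15 sphere and 4528 RPM in HCT15 parental exosomes. The 3 muscle markers had 0 reads in all. The 7 blood cell markers summed to 360 RPM in HCT29 sphere and 1645 RPM in HCT29 parental exosomes, and to 152 RPM in HCT15 sphere and 4023 RPM in HCT15 parental exosomes, with 4, 7, 4 and 6 of the 7 having a read in that order. Most was miR-486-5p (171, 159, 53 and 456 reads in the same order). The 3 serum markers, which include it, summed to 322 RPM in HCT29 sphere and 1464 RPM in HCT29 parental, and to 115 RPM in HCT15 sphere and 3546 RPM in HCT15 parental exosomes. Blood and serum levels were thus lower in spheres of both lines. miR-210-3p was lower in HCT29 spheres but about level in HCT15 by RPM. miR-210-5p was lower in HCT15 spheres, with its direction in HCT29 undetermined. The serum marker miR-122-5p had 1 read in HCT29 parental and 0 in the other libraries, and miR-451a, a marker of red cells, had 0 in both sphere libraries, 2 in HCT29 parental and 64 in HCT15 parental. The 5 fibroblast and smooth muscle markers summed to 181 RPM in HCT29 sphere, 1473 in HCT29 parental, 4479 in HCT15 sphere and 1180 in HCT15 parental exosomes, and the 2 endothelial ones to 450, 849, 158 and 934 RPM in the same order. Fibroblast levels were lower in HCT29 spheres, as miR-210-3p was, but higher in HCT15 spheres, where miR-210-3p was about level by RPM. Endothelial levels were lower by RPM in spheres of both lines. The 1 endothelial marker measured in HCT29 was within 2-fold, at a log2 ratio of -0.87 beside a median of -0.57 for all miRNAs. The part of these marker groups in the results was not tested. From a bulk exosome library, fewer vesicles carrying a miRNA and less of it per vesicle cannot be told apart.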

How the data were processed

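Small RNA libraries (TruSeq chemistry, fragments of the miRNA size range) were made from exosomes purified by ultracentrifugation, per the labels' protocols. The authors deposited RPM values for 2588 mature miRNAs per library. The headers of both HCT15 tables name the unit, while those of HCT29 name the culture, and their values were read as RPM because they behave alike. The build is hg19 per the submitters' processing notes. The aligner is not given in the sources used here. Whole reads were recovered from the RPM steps, with 100% of nonzero values whole within 0.1 read, and 0 value columns were left unused. Listed miRNAs held 77.8 to 89.9% of the implied totals.

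Ratios are of RPM, with exact conditional binomial 95% intervals, and arm odds have exact conditional intervals. Log2 ratios use RPM + 1, and 2-fold is the threshold, for those with 10 or more reads in one of the libraries. A fold against 0 reads uses a floor of 3 reads. limma 3.58.1 with a mean-variance trend was fitted to the 222 miRNAs reaching 10 reads in 2 or more libraries, with an adjusted p of 0.05 as threshold. edgeR 4.0.16, DESeq2 1.42.0 and limma voom on recovered reads were alternatives, as were other scalings, pseudocounts and filters. The fits were tested on simulated data. The fold came from ViennaRNA 2.7.2.

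The members and lists were chosen with earlier results of these data known. Named are both arms, the 6 nearest patterns, the rank neighbours of miR-210-3p, the 4 reference miRNAs, and up to 8 members per line and direction of the hypoxia lists at 2-fold or more. Outside this rule, miR-23a-3p and miR-22-3p in HCT15, miR-107 in HCT29, miR-155-5p, miR-373-3p, miR-31-5p, miR-338-3p and single marker miRNAs were named after their values were seen. miR-199a-5p is in the HIF1A and fibroblast lists, miR-192-5p in the hypoxia and epithelial ones, and miR-451a and miR-486-5p in the blood and serum ones. miR-103a-3p is both in the hypoxia list and among the references. Nothing in the labels says that libraries are replicates, so limma uses the lines as replicates of culture and the cultures as replicates of line.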

Additional observations from a re-analysis of the deposited data

Results flagged for a closer look

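By RPM, the log2 ratio of each arm of miR-210 had opposite signs in the lines, but for neither arm is the sign settled in both lines. For miR-210-3p the log2 ratio of sphere over parental exosomes was -1.92 in HCT29 and 0.10 in HCT15, where the counting interval of the RPM ratio includes no change. The HCT15 value was -0.11 as a share of listed miRNA reads and -0.21 relative to 4 reference miRNAs. With TMM scaling it was 0.71, above that interval. For miR-210-5p it was 0.50 in HCT29, on 7 sphere reads and 1 parental read with an interval of the ratio (0.187 to 65.8) that includes no change, and -5.29 in HCT15, on 1 sphere read and 18 parental reads. With 1 library per line and culture these differences between the lines were not tested. Counting intervals for the ratio of ratios, HCT29 over HCT15, were 0.158 to 0.382 for miR-210-3p and 3.37 to 3.91e+03 for miR-210-5p.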

How the results depend on the processing

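TMM scaling, DESeq2 size factors and TMM factors from all miRNAs with a read put the log2 ratio of miR-210-3p in spheres over parental exosomes at 0.71, 0.56 and 0.71 in HCT15 and at -1.17, -1.05 and -0.75 in HCT29, and the ratio of HCT29 to HCT15 spheres at -1.84, -1.49 and -1.48. Relative to 4 reference miRNAs the HCT29 value was -1.33 and that between spheres -0.92. Without the HCT29 libraries the culture effect of miR-210-3p turned to 0.10. Its adjusted p ranged from 0.851 to 1.000 over the alternatives, and that of the line effect from 0.545 to 0.865. Other alternatives left the miR-210-3p and miR-210-5p ratios within their counting intervals, which for miR-210-5p are wide. DESeq2, voom and limma with TMM factors from all miRNAs called 1 miRNA for culture, and edgeR called 0, with 3 at an unadjusted p under 0.05. For the line, limma called 28, against 10 with edgeR, 16 with DESeq2, 5 with a pseudocount of 0.1 RPM, 17 without a filter, 3 with 10 reads in all 4 libraries and 7 with only the line as a term. Where a value moved, the cause was not tested. The culture fit pairs sphere with parental exosomes within a line through its line term, and without that term the effect of -0.91 had an SE of 1.49 in place of 1.29, with a limma adjusted p of 0.987. Beyond the line, no pairing by replicate number could be made, since the labels give no such number.

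Counts at 2-fold moved with filter and scaling. Without a filter, and then with at least 50 reads, all miRNAs gave 390 and 44 higher and 227 and 46 lower in HCT15 spheres, 176 and 22 higher and 236 and 44 lower in HCT29 spheres, 156 and 26 higher and 289 and 48 lower in HCT29 over HCT15 parental, and 172 and 42 higher and 509 and 96 lower in HCT29 over HCT15 spheres. TMM scaling gave 123 higher and 51 lower in spheres of HCT15 and 76 higher and 48 lower in those of HCT29, DESeq2 factors 117 higher and 59 lower in HCT15 and 84 higher and 47 lower in HCT29 spheres, and TMM factors from all miRNAs 123 higher and 51 lower in HCT15, and 94 higher and 36 lower in HCT29. Against 98 and 86 of 305 in HCT15 and 52 and 81 of 224 in HCT29 for RPM, the balance of higher and lower thus depends on the scaling.

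These counts are the background for the lists. Of the hypoxia-raised miRNAs (19 measured in HCT15 and 17 in HCT29), 0, 1 and 0 were lower in HCT15 under TMM, DESeq2 and TMM from all miRNAs, 5, 5 and 2 lower in HCT29, and 2 higher in HCT29 under both of the last. Of the HIF1A and HIF1AN repressors (7 measured in each line), 0 were lower in HCT15 under these 3 scalings, and 1, 1 and 2 higher in HCT29. These counts pool repressors of opposite expected effect on HIF-1. Without a filter 5 of 11 repressors were higher in HCT15, beside 390 of all 790 miRNAs, and 1 of 9 in HCT29, beside 176 of 532. Depth limits miR-210-5p, where 3 reads are 5.65 RPM in HCT29 sphere, 27.1 in HCT29 parental, 6.50 in HCT15 sphere and 20.5 in HCT15 parental.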
